A study of Homo sapiens with 12 samples.

Results

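The amino acid transporters described here are 10 genes of the solute carrier families SLC1, SLC3, SLC7 and SLC38, taken by symbol and linked between the tables by Ensembl identifier. They are the cystine carrier SLC7A11, the heavy chain SLC3A2, the large neutral carrier SLC7A5, the exchanger SLC7A6, the cationic carriers SLC7A1 and SLC7A2, and the neutral carriers SLC1A4, SLC1A5, SLC38A1 and SLC38A2. All 10 were among the 27745 genes of the count table, all 10 passed the filter on low counts that left 15026 genes for testing, and all 10 were among the 60675 genes of the immunoprecipitation table. The set was chosen by carrier function, with hairpin and RIP values of these same libraries already known, and how those values weighed in the choice is not recorded. Values and adjusted p-values below, from fits across all genes, therefore describe each gene, and the counts of changed members support nothing further.

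RNA was sequenced from MDA-MB231, a human triple-negative breast cancer line long grown in culture, after lentiviral infection and selection for stable expression of a short hairpin RNA. The groups were sh_TDP43, with a hairpin against the RNA-binding protein TDP43 (gene TARDBP), sh_SRSF3, with a hairpin against the splicing factor SRSF3, and sh_control, with 2 libraries each. RNA immunoprecipitation (RIP), the pull-down of RNA bound to a protein, was made with an antibody against the Flag tag in MDA-MB231 cells overexpressing Flag-TDP43 or Flag-SRSF3; each protein had a single RIP library and a single input library. The design addresses which RNAs change when either protein is lowered and which are recovered with it. Only 1 hairpin per target is named, so its effects on other genes cannot be told apart from those of its target, and the tagged proteins were made in excess of the cells' own.

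The SLC7 light chains SLC7A11, SLC7A5 and SLC7A6 reach the plasma membrane paired with the heavy chain SLC3A2 (also called CD98hc or 4F2hc). With SLC7A11 it forms system xc-, which imports cystine for glutathione synthesis in exchange for glutamate, and with SLC7A5 (LAT1) it forms the main importer of leucine and other large neutral amino acids, which feed the kinase complex mTORC1. SLC7A1 and SLC7A2 carry arginine and lysine without a heavy chain, whereas SLC1A5 and the sodium-coupled SLC38 carriers bring in glutamine and other small neutral amino acids. Several of these genes are known targets of ATF4, the transcription factor of the amino acid and stress response, and SLC7A11 is also a target of NRF2, the factor of the oxidative stress response.

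Counted reads, in units of 1000000 (M), were 35.0 M and 34.5 M in the sh_TDP43 libraries, 35.9 M and 38.3 M in the sh_SRSF3 libraries and 37.5 M and 38.0 M in the sh_control libraries. Levels are given as counts per 1000000 counted reads (CPM) after TMM scaling. TARDBP was at 34.4 and 31.3 CPM in sh_TDP43, at 108 and 102 CPM in sh_SRSF3 and at 168 and 125 CPM in sh_control. SRSF3 was at 187 and 180.4 CPM in sh_TDP43, at 64.1 and 61.7 CPM in sh_SRSF3 and at 459 and 404 CPM in sh_control. Each target was thus lowest under its own hairpin, and its libraries under the other hairpin also lay below sh_control. All 10 markers of MDA-MB231 used as a check were expressed, but their summed level was lower in the knockdowns, at 5475 and 5309 CPM in sh_TDP43 and 7689.8 and 7378 CPM in sh_SRSF3, against 8822 and 8995 CPM in sh_control. The 11 luminal breast markers summed to 1759 and 1859 CPM in sh_TDP43, 1724 and 1867 CPM in sh_SRSF3 and 1451 and 1433 CPM in sh_control, with PGR and FOXA1 under 1 CPM in every library. KRT8 and KRT18, the keratins of simple epithelia, were higher under both hairpins, KRT8 by 0.50 in sh_TDP43 (adjusted p = 0.000792) and 0.45 in sh_SRSF3 (adjusted p = 0.000808). Other luminal markers went the other way, XBP1 by -0.73 in sh_TDP43 (adjusted p = 9.63e-05). In sh_SRSF3 KRT19 changed by -0.32 (adjusted p = 0.00471) and TFF1 by -0.65 (adjusted p = 0.0419). Of the 9 tested, 2 were higher and 1 lower in sh_TDP43 (median log2 change 0.06), and 3 higher and 2 lower in sh_SRSF3 (median 0.22). The 8 fibroblast markers summed to 22.6 to 25.2 CPM in sh_TDP43, 39.0 to 42.9 CPM in sh_SRSF3 and 22.8 to 23.6 CPM in sh_control, with DCN, PDGFRA and POSTN under 1 CPM. Of 8 haematopoietic markers 6 stayed under 1 CPM, with HBA1 and HBB at 0, and of 5 packaging-cell markers 4 stayed under 1 CPM. The part of these shifts in MDA-MB231 and luminal markers in the results below was not tested. In bulk RNA, fewer cells with a transcript and less of it per cell cannot be told apart.

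Letters that ATF4 and NRF2 are known to bind were looked up in the promoters, because the members known as their targets include those with the largest changes. RefSeq start-site windows of 250 bases before and 50 bases after the start (GRCh38.p14) were given for 8 of the 10 genes, in 14 windows; SLC7A11 and SLC7A2 were not among them. The core of the C/EBP-ATF or amino acid response element, TGATGNAA on either strand, was found in windows of 5 of these 8 genes, against 4.46% of all 27305 genes. By window this was 5 of 14, against 3.62% of all 35116. Known targets were the reason for the search, so a share above that of all genes tests nothing. Each match is shown in capitals in a 30-base run in the direction of the gene, with its first base counted from the start site.
SLC1A5, at -97, chr19:46784893-46784922, minus strand: gaggaagtggcTGATGCAAgctgtccaggg
SLC1A4, at -7, chr2:64989381-64989410, plus strand: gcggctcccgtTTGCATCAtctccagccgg
SLC38A1, at -4, chr12:46266502-46266531, minus strand: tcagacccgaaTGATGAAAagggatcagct
SLC7A1, at 8, chr13:29595663-29595692, minus strand: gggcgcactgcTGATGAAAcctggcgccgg
SLC3A2, at 38, chr11:62881719-62881748, plus strand: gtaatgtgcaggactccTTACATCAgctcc

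The antioxidant response element core, TGACNNNGC on either strand, is less particular and was found in 13.3% of all windows and 16.1% of all genes. Among the transporters it was in 5 of the 14 windows, those of SLC3A2, SLC7A1, SLC7A5, SLC7A6 and SLC1A5. The heavy chain gene is shown with the 250 bases before one of its start sites, since its RNA had the largest rise of the 10, and the capitals mark the match, which begins at -37 and overlaps the AP-1 motif TGACTCA.
SLC3A2, chr11:62881449-62881698, plus strand: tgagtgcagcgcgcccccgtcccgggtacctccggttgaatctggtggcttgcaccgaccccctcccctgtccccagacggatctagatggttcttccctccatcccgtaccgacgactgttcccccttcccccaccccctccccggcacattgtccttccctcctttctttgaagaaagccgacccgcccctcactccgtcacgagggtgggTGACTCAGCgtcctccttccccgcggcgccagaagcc
These matches describe letters only, and no binding was measured at them.

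More of the transporters were lower than higher in sh_TDP43, and more were higher than lower in sh_SRSF3. In sh_TDP43 against sh_control 5 of the 10 were lower (SLC7A11, SLC7A1, SLC7A2, SLC1A4 and SLC1A5), 1 was higher (SLC7A6) and 4 did not pass an adjusted p of 0.05 in edgeR's quasi-likelihood test, where 44.8% of all genes tested passed, 24.1% lower and 20.7% higher. Under upper-quartile scaling the count over all genes turned to 2978 lower and 3956 higher, while 5 lower and 1 higher transporters were again called. In sh_SRSF3 against sh_control 7 were higher, 2 were lower (SLC7A2 and SLC1A4) and 1 did not pass (SLC1A5), where 66.9% of all genes passed, 32.5% higher and 34.4% lower; upper-quartile scaling called 5 higher and 3 lower. The median log2 change of the 10 was -0.37 in sh_TDP43, where that of all genes was 0.0, and 0.45 in sh_SRSF3, where that of all genes was -0.03. Both comparisons share the sh_control libraries.

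**Figure D1:**
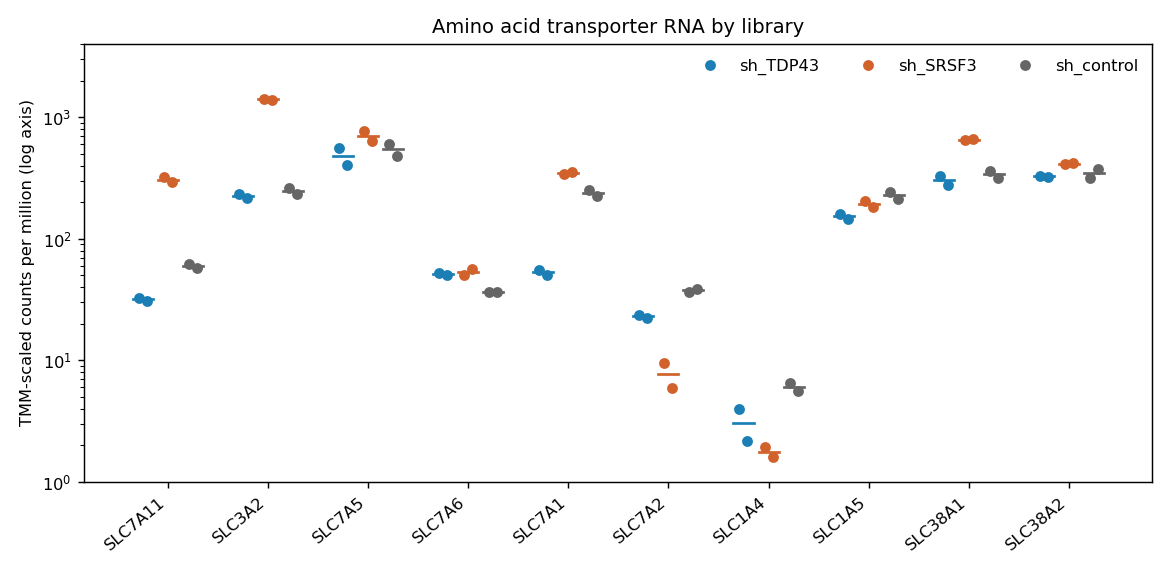
TMM-scaled CPM of each transporter in each library, on a log axis. Points are libraries, 2 per group, and the short line is their mean. SLC7A11, SLC3A2 and SLC38A1 stand apart in sh_SRSF3, at 307, 1405 and 654 CPM on average, and SLC7A1 in sh_TDP43, at 53.2 CPM.

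**Figure D2:**
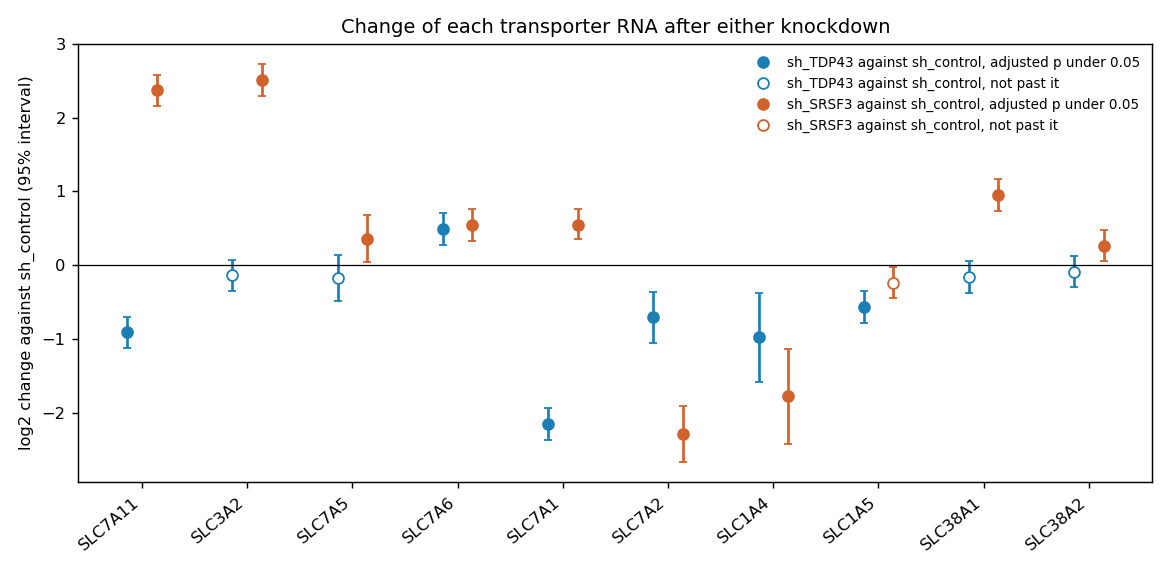
Log2 change of each transporter against sh_control with its 95% interval, from edgeR. Filled points passed an adjusted p of 0.05 and open points did not. SLC7A11 and SLC7A1 lie below 0 in sh_TDP43 and above 0 in sh_SRSF3, while SLC7A2 and SLC1A4 lie below 0 in both.

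Per length of exon, in reads per kilobase of exon and 1000000 counted reads (RPKM), the order of the 10 levels differed between groups. In sh_TDP43 the order was SLC7A5 at 101 RPKM, SLC38A2 at 49.3, SLC1A5 at 45.9, SLC3A2 at 43.3, SLC38A1 at 30.3, SLC7A1 at 6.92, SLC7A6 at 6.78, SLC7A11 at 3.28, SLC7A2 at 2.91 and SLC1A4 at 0.442 RPKM, with overlapping libraries between SLC1A5 and SLC3A2 and between SLC7A1 and SLC7A6. In sh_SRSF3 the heavy chain came first, with SLC3A2 at 271 RPKM, SLC7A5 at 147, SLC38A1 at 65.3, SLC38A2 at 62.9, SLC1A5 at 57.8, SLC7A1 at 45.2, SLC7A11 at 31.8, SLC7A6 at 7.04, SLC7A2 at 0.975 and SLC1A4 at 0.254 RPKM, and no neighbours overlapped. In sh_control SLC7A5 led at 115 RPKM, before SLC1A5 at 68.1, SLC38A2 at 52.4, SLC3A2 at 47.7, SLC38A1 at 33.8, SLC7A1 at 30.8, SLC7A11 at 6.16, SLC7A6 at 4.83, SLC7A2 at 4.76 and SLC1A4 at 0.873 RPKM. Libraries of neighbours overlapped there between SLC38A2 and SLC3A2, between SLC38A1 and SLC7A1, and between SLC7A6 and SLC7A2. The 10 levels summed to 291 ± 34 RPKM in sh_TDP43, 689.8 ± 27 RPKM in sh_SRSF3 and 364 ± 27 RPKM in sh_control (SD, n = 2 each). Most of the larger sum in sh_SRSF3 lay in SLC3A2. An order or sum over different genes depends on the exonic length used for each.

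SLC7A11, the cystine-glutamate exchanger, moved in opposite directions under the 2 hairpins. SLC7A11 (ENSG00000151012; GRCh37 chromosome 4, 139085251 to 139163503, minus strand; all values here sum over its exons) was at 32.4 and 30.9 CPM in sh_TDP43, at 322 and 292 CPM in sh_SRSF3 and at 61.5 and 57.3 CPM in sh_control. The 3 groups did not overlap, with sh_TDP43 lowest and sh_SRSF3 highest. Against sh_control the log2 change was -0.91 in sh_TDP43 (SE 0.10, adjusted p = 5.78e-06) and 2.37 in sh_SRSF3, a 5.17-fold rise (SE 0.10, adjusted p = 3.3e-10). Leaving out any 1 library left the log2 change between -0.97 and -0.86 in sh_TDP43 and between 2.30 and 2.42 in sh_SRSF3.

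SLC3A2, the heavy chain, rose in sh_SRSF3 and passed no test in sh_TDP43. SLC3A2 (ENSG00000168003; chromosome 11, 62623574 to 62656347, plus strand) was at 233 and 215 CPM in sh_TDP43, at 1416 and 1395 CPM in sh_SRSF3 and at 262 and 232 CPM in sh_control. The higher sh_TDP43 library (233 CPM) lay just above the lower sh_control library (232 CPM), so these groups overlapped, and those of sh_SRSF3 lay far above both. The log2 change was 2.51 in sh_SRSF3 against sh_control (5.69-fold, SE 0.10, adjusted p = 3.13e-10), and -0.14 in sh_TDP43 against sh_control (95% interval -0.35 to 0.07, adjusted p = 0.254).

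The other partners of the heavy chain changed less than SLC7A11. SLC7A5 (ENSG00000103257; chromosome 16, 87863629 to 87903094, minus strand), which imports leucine, was at 558 and 404 CPM in sh_TDP43, at 765 and 631 CPM in sh_SRSF3 and at 604 and 483 CPM in sh_control. It had the widest spread between libraries among the abundant members, and sh_TDP43 and sh_control overlapped. Its log2 change was 0.36 in sh_SRSF3 against sh_control (SE 0.15, adjusted p = 0.0448) and -0.18 in sh_TDP43 against sh_control (95% interval -0.49 to 0.14, adjusted p = 0.356). The call in sh_SRSF3 was lost under upper-quartile scaling (adjusted p = 0.229), in DESeq2 (0.191), without sh_SRSF3 replicate 1 (0.3) and without sh_control replicate 2 (0.278). In sh_TDP43 the change turned to 0.04 without sh_TDP43 replicate 2, and it passed with the replicate number as a block (adjusted p = 0.0418) and without sh_TDP43 replicate 1 (0.0498). SLC7A5 has pseudogene copies in the genome, and reads that match both may be missing from its counts.

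SLC7A6, a y+L exchanger that releases arginine in return for neutral amino acids, was the single member higher under both hairpins. SLC7A6 (ENSG00000103064; chromosome 16, 68298419 to 68335726, plus strand) was at 52.6 and 50.4 CPM in sh_TDP43, at 50.4 and 56.5 CPM in sh_SRSF3 and at 36.5 and 36.8 CPM in sh_control. Neither knockdown overlapped sh_control, and the knockdowns overlapped each other. Its log2 change against sh_control was 0.49 in sh_TDP43 (SE 0.10, adjusted p = 0.00135) and 0.55 in sh_SRSF3 (SE 0.10, adjusted p = 0.000276). It overlaps SLC7A6OS on the opposite strand, and counting without strand cannot separate reads of the shared stretch; SLC7A6OS itself was at 11.7 and 11.2 CPM in sh_TDP43, 14.0 and 14.1 CPM in sh_SRSF3 and 9.87 and 10.8 CPM in sh_control.

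Per length of exon, light-chain RNA in sum was below heavy-chain RNA in sh_SRSF3 and above it in the other groups. The summed RPKM of SLC7A11, SLC7A5 and SLC7A6 was 2.56 ± 0.39 times that of SLC3A2 in sh_TDP43, 0.685 ± 0.072 times in sh_SRSF3 and 2.62 ± 0.16 times in sh_control (SD, n = 2 each). For SLC7A11 alone the ratio to SLC3A2 was 0.0759 ± 0.0017 in sh_TDP43, 0.117 ± 0.0067 in sh_SRSF3 and 0.129 ± 0.0046 in sh_control. So the cystine carrier and its heavy chain kept nearly the same ratio in sh_SRSF3 as in sh_control, with libraries at 0.122 and 0.112 against 0.126 and 0.132, and a lower one in sh_TDP43. SLC7A11 made up 3.0 ± 0.52% of the RPKM of the 3 light chains in sh_TDP43, 17.2 ± 0.82% in sh_SRSF3 and 4.94 ± 0.48% in sh_control. The ratio of SLC7A5 to SLC3A2 was 2.33 ± 0.39 in sh_TDP43, 0.542 ± 0.068 in sh_SRSF3 and 2.39 ± 0.17 in sh_control. These ratios were not tested, and they concern RNA, not protein or paired carriers. Which of 2 genes is higher depends on the unit, so only the change of a ratio between groups is described. In the Flag-TDP43 input SLC7A5 and SLC3A2 were at 54.0 and 26.5 FPKM. On the second deposited scale for that library they were at 68.6 and 105, in the reverse order.

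**Figure D3:**
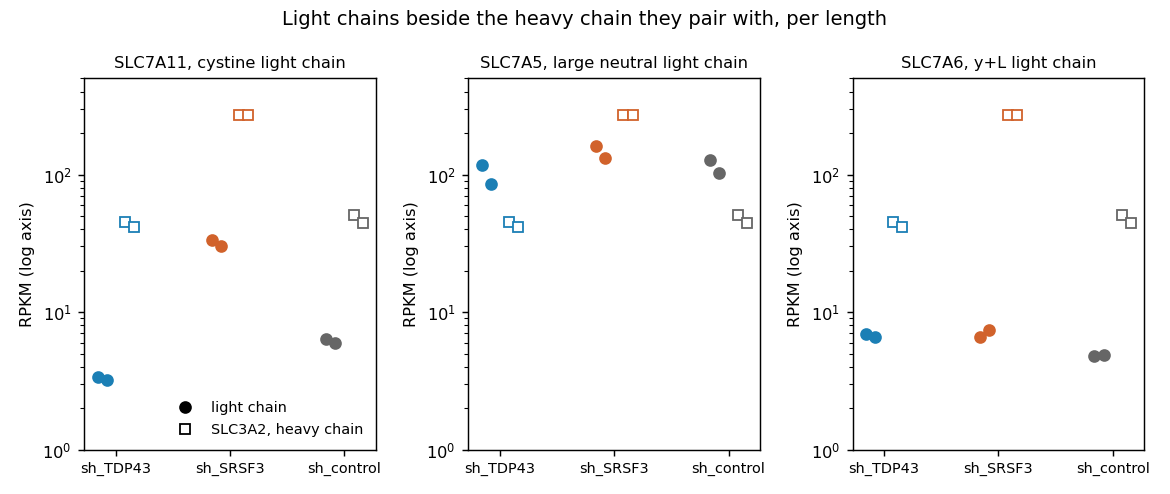
RPKM of each light chain (filled circles) and of the heavy chain SLC3A2 (open squares, the same in each panel) by library, on a log axis, 2 libraries per group. On this scale SLC7A5 lies above SLC3A2 in sh_TDP43 (101 against 43.3 RPKM on average) and in sh_control (115 against 47.7 RPKM), and below it in sh_SRSF3 (147 against 271 RPKM).

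The cationic carriers showed 2 patterns. SLC7A1 (CAT1), the arginine carrier of most growing cells (ENSG00000139514; chromosome 13, 30083547 to 30169825, minus strand), was at 55.8 and 50.6 CPM in sh_TDP43, at 344 and 351 CPM in sh_SRSF3 and at 250.2 and 224 CPM in sh_control. The groups did not overlap. Its log2 change was -2.15 in sh_TDP43 against sh_control (SE 0.10, adjusted p = 5.65e-09), so that sh_control had 4.45 times as much, and this was the single change of at least 2-fold among the 10 in that comparison (SLC1A4, at -0.98, lay just short of it), where 6.44% of all genes were called at least 2-fold lower and 6.25% at least 2-fold higher. In sh_SRSF3 the change was 0.55 (SE 0.09, adjusted p = 0.000142).

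SLC7A2 (CAT2), whose isoforms carry arginine with differing affinity, was lower under both hairpins. SLC7A2 (ENSG00000003989; chromosome 8, 17354597 to 17428082) was at 23.8 and 22.2 CPM in sh_TDP43, at 9.49 and 5.93 CPM in sh_SRSF3 and at 36.5 and 38.7 CPM in sh_control. No group overlapped another, and sh_SRSF3 was lowest. Its log2 change against sh_control was -0.71 in sh_TDP43 (SE 0.16, adjusted p = 0.00286) and -2.29 in sh_SRSF3 (SE 0.18, adjusted p = 6.44e-08). The RPKM of SLC7A1 was 2.38 ± 0.046 times that of SLC7A2 in sh_TDP43, 49.0 ± 17 times in sh_SRSF3 and 6.5 ± 0.78 times in sh_control (SD, n = 2 each).

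Of the SLC1 carriers, SLC1A5 (ASCT2), a main glutamine importer of many tumour cells (ENSG00000105281; chromosome 19, 47278140 to 47291851, minus strand), was at 160.2 and 146 CPM in sh_TDP43, at 204 and 182 CPM in sh_SRSF3 and at 241 and 213 CPM in sh_control. Both knockdowns lay below sh_control in every library. Its log2 change was -0.57 in sh_TDP43 against sh_control (SE 0.10, adjusted p = 0.000427). In sh_SRSF3 the log2 change was -0.24 (95% interval -0.45 to -0.02, adjusted p = 0.0511), just short of the threshold. It passed there under upper-quartile scaling (-0.39, adjusted p = 0.00334), without the filter (0.0416), with a replicate block (0.00902) and without sh_control replicate 2 (0.0192).

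SLC1A4 (ASCT1), a carrier of serine, alanine and cysteine, was the member with the lowest level. SLC1A4 (ENSG00000115902; chromosome 2, 65215611 to 65250999, plus strand) was at 3.96 and 2.17 CPM in sh_TDP43, at 1.92 and 1.61 CPM in sh_SRSF3 and at 6.51 and 5.61 CPM in sh_control. All knockdown libraries lay below both sh_control libraries. The log2 change was -0.98 in sh_TDP43 against sh_control (SE 0.28, adjusted p = 0.0114) and -1.78 in sh_SRSF3 against sh_control (SE 0.30, adjusted p = 0.000111). The size in sh_TDP43 rested on single libraries. It was -1.49 without sh_TDP43 replicate 1 (adjusted p = 0.00357), -1.09 without sh_control replicate 2 (0.0178) and -1.02 with a replicate block (0.00126), all past 2-fold. The call was lost without sh_TDP43 replicate 2 (-0.61, adjusted p = 0.141) and without sh_control replicate 1 (-0.88, adjusted p = 0.0577).

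The sodium-coupled neutral carriers rose in sh_SRSF3 and did not pass the test in sh_TDP43. SLC38A1 (SNAT1), a glutamine importer (ENSG00000111371; chromosome 12, 46576846 to 46663800, minus strand), was at 328 and 279 CPM in sh_TDP43, at 651 and 657 CPM in sh_SRSF3 and at 359 and 318 CPM in sh_control. Its sh_SRSF3 libraries lay well above the other 4, which overlapped. The log2 change was 0.95 in sh_SRSF3 against sh_control (SE 0.10, adjusted p = 1.98e-06) and -0.16 in sh_TDP43 against sh_control (95% interval -0.38 to 0.06, adjusted p = 0.236).

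SLC38A2 (SNAT2), which is known to rise in cells starved of amino acids, had small differences. SLC38A2 (ENSG00000134294; chromosome 12, 46751972 to 46766650, minus strand) was at 330.1 and 321 CPM in sh_TDP43, at 409.8 and 421 CPM in sh_SRSF3 and at 317 and 375 CPM in sh_control. The sh_TDP43 libraries fell between those of sh_control, and those of sh_SRSF3 lay above. Its log2 change was 0.26 in sh_SRSF3 against sh_control (SE 0.10, adjusted p = 0.0291) and -0.09 in sh_TDP43 against sh_control (95% interval -0.30 to 0.12, adjusted p = 0.496). The call in sh_SRSF3 was lost under upper-quartile scaling (adjusted p = 0.344), without sh_SRSF3 replicate 1 (0.079) or 2 (0.169) and without sh_control replicate 1 (0.217). The RPKM of SLC38A1 was 0.614 ± 0.058 times that of SLC38A2 in sh_TDP43, 1.04 ± 0.012 times in sh_SRSF3 and 0.652 ± 0.13 times in sh_control (SD, n = 2 each).

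In all, 2 members changed by at least 2-fold upward in sh_SRSF3 against sh_control (SLC7A11 and SLC3A2) and 2 downward (SLC7A2 and SLC1A4), where 11.3% of all genes were called at least 2-fold higher and 20.4% at least 2-fold lower. SLC38A1, at a log2 change of 0.95, was the nearest below that size. Of the 5 genes with an amino acid response core in a promoter window, SLC3A2, SLC7A1 and SLC38A1 rose in sh_SRSF3, SLC1A4 fell and SLC1A5 did not pass. In sh_TDP43 SLC7A1, SLC1A4 and SLC1A5 of these 5 fell, and SLC3A2 and SLC38A1 did not pass. The members whose windows lack the core, SLC7A5, SLC7A6 and SLC38A2, were all called higher in sh_SRSF3, where 32.5% of all genes were. In sh_TDP43 SLC7A6 of these was higher, and SLC7A5 and SLC38A2 did not pass. The genes were not searched over equal lengths. SLC7A5, SLC7A6, SLC38A2 and SLC7A1 had 1 window each, SLC1A4 and SLC38A1 had 2, and SLC3A2 and SLC1A5 had 3. Letters outside the windows were not searched, so a gene without a match may hold the core elsewhere. Whether the core plays a part was not tested.

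Set directly against each other, the knockdowns differed for 9 of the 10 transporters. In sh_TDP43 against sh_SRSF3 7 were lower and 2 were higher (SLC7A2 and SLC1A4), where 65.5% of all genes passed, 32.0% lower and 33.5% higher; upper-quartile scaling called 3378 genes lower and 6451 higher, and 4 transporters lower and 2 higher. The log2 difference was -3.28 for SLC7A11 (9.7 times as much in sh_SRSF3, adjusted p = 1.18e-10), -2.71 for SLC7A1 (adjusted p = 3.14e-10), -2.65 for SLC3A2 (adjusted p = 3.14e-10) and -1.11 for SLC38A1 (adjusted p = 4.89e-07). It was 1.58 for SLC7A2 (adjusted p = 2.51e-06). SLC7A11, SLC7A1 and SLC3A2 thus showed the widest gaps between the hairpins, and the cationic carriers SLC7A1 and SLC7A2 differed in opposite directions. The 5 genes given here are the members past 2-fold. Of all genes, 10.6% were called at least 2-fold lower and 20.0% at least 2-fold higher. For SLC7A6 the difference was -0.05, with a 95% interval of -0.27 to 0.16 (adjusted p = 0.648), and it turned to 0.19 under upper-quartile scaling and to 0.04 without sh_SRSF3 replicate 2.

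The 4 smaller differences between the knockdowns rested on single libraries or on the scaling. SLC7A5, at -0.54 (adjusted p = 0.00577), was lost under upper-quartile scaling (0.0992), in DESeq2 (0.0569), without sh_TDP43 replicate 2 (0.115) and without sh_SRSF3 replicate 1 (0.0616). SLC1A4, at 0.80 (adjusted p = 0.0332), was lost without sh_TDP43 replicate 1 (0.47) and without sh_SRSF3 replicate 2 (0.129). SLC1A5, at -0.33 (adjusted p = 0.00978), was lost under upper-quartile scaling (0.464), without sh_TDP43 replicate 2 (0.117) and without sh_SRSF3 replicate 1 (0.108). SLC38A2 was at -0.35 (adjusted p = 0.00622), and this call was lost under upper-quartile scaling (0.374), without sh_TDP43 replicate 2 (0.0548) and without sh_SRSF3 replicate 2 (0.0609).

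In the immunoprecipitations the transporters differed in how much of their RNA came down with each protein. Levels are FPKM (fragments per kilobase and 1000000 fragments), and the log2 ratio of RIP over input is taken after adding 1 FPKM to both. With 1 library each there is no replicate check and no test, and a ratio describes these libraries. TARDBP was at 80.4 FPKM in the Flag-TDP43 RIP and 14.2 FPKM in its input, and SRSF3 at 91.3 FPKM in the Flag-SRSF3 RIP and 54.9 FPKM in its input. SRSF3 was also at 83.4 FPKM in the Flag-TDP43 RIP and 29.3 FPKM in its input, a larger ratio than in the RIP of SRSF3 itself, and TARDBP was at 1.48 FPKM in the Flag-SRSF3 RIP and 1.76 FPKM in its input. These values are therefore no check of the pull-downs. Over all genes with at least 1 FPKM in either library the median log2 ratio was 0.03 for TDP43 (quartiles -0.58 and 0.66) and 0.18 for SRSF3 (quartiles -0.32 and 0.69). For the 10 transporters it was 0.35 for TDP43 and 0.64 for SRSF3.

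SLC1A5 and SLC7A5 were the members past 2-fold. SLC1A5 was at 204 FPKM in the Flag-TDP43 RIP and 54.6 FPKM in its input (log2 ratio 1.88, 3.72 times, higher than 95.5% of genes), and at 160.4 FPKM in the Flag-SRSF3 RIP and 70.8 FPKM in its input (1.17). SLC7A5 was at 17.8 FPKM in the Flag-TDP43 RIP and 54.0 FPKM in its input (-1.55, so that the input held 3.03 times as much), and at 115 FPKM in the Flag-SRSF3 RIP and 54.0 FPKM in its input (1.08). The glutamine carrier was therefore higher with both proteins, and the leucine carrier lower with TDP43 and higher with SRSF3. With TDP43 this makes 1 of 10 at least 2-fold higher and 1 of 10 at least 2-fold lower, where 15.9% of all genes were higher and 13.1% lower by that much. With SRSF3 2 of 10 were higher and 0 lower, where 14.7% of all genes were higher and 6.82% lower. These counts depend on the added 1 FPKM. In the log2 ratios of the authors' deposited table, SLC1A5 and SLC1A4 were at least 2-fold higher with TDP43, 2 of 10, and SLC7A5 at least 2-fold lower, where 22.0% of all genes were higher and 20.4% lower. With SRSF3 the authors' deposited table has SLC1A5, SLC7A5 and SLC38A2 higher, 3 of 10, and 0 lower, where 22.6% of all genes were higher and 11.4% lower.

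The other members had smaller ratios. SLC38A2 was at 42.7 FPKM in the Flag-TDP43 RIP and 22.6 FPKM in its input (0.89), and at 41.1 FPKM in the Flag-SRSF3 RIP and 20.3 FPKM in its input (0.99, just under 2-fold on this scale). SLC1A4 was at 2.2 FPKM in the Flag-TDP43 RIP and 0.982 FPKM in its input (0.69), and at 2.03 FPKM in the Flag-SRSF3 RIP and 1.02 FPKM in its input (0.59). At such levels the added 1 FPKM shrinks a ratio, and the authors' deposited table gives log2 ratios of 1.16 for TDP43 and 1.00 for SRSF3 for SLC1A4. SLC3A2 was at 33.1 FPKM in the Flag-TDP43 RIP and 26.5 FPKM in its input (0.31), and at 38.8 FPKM in the Flag-SRSF3 RIP and 25.9 FPKM in its input (0.57). The heavy chain thus lay inside the quartiles of all genes with both proteins.

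SLC7A11 was at 9.36 FPKM in the Flag-TDP43 RIP and 6.66 FPKM in its input (0.43), and at 6.84 FPKM in the Flag-SRSF3 RIP and 10.5 FPKM in its input (-0.56). SLC7A2 showed the same signs, at 4.43 FPKM in the Flag-TDP43 RIP and 3.17 FPKM in its input (0.38), and at 1.95 FPKM in the Flag-SRSF3 RIP and 3.27 FPKM in its input (-0.54). The cystine carrier and this cationic carrier were the members below their input with SRSF3. SLC7A1 was at 7.19 FPKM in the Flag-TDP43 RIP and 7.17 FPKM in its input (0.0), and at 13.1 FPKM in the Flag-SRSF3 RIP and 7.18 FPKM in its input (0.79). SLC7A6 was at 2.24 FPKM in the Flag-TDP43 RIP and 3.06 FPKM in its input (-0.32), and at 5.1 FPKM in the Flag-SRSF3 RIP and 2.76 FPKM in its input (0.70). SLC7A1 and SLC7A6 were thus above their input with SRSF3 and not with TDP43.

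**Figure D4:**
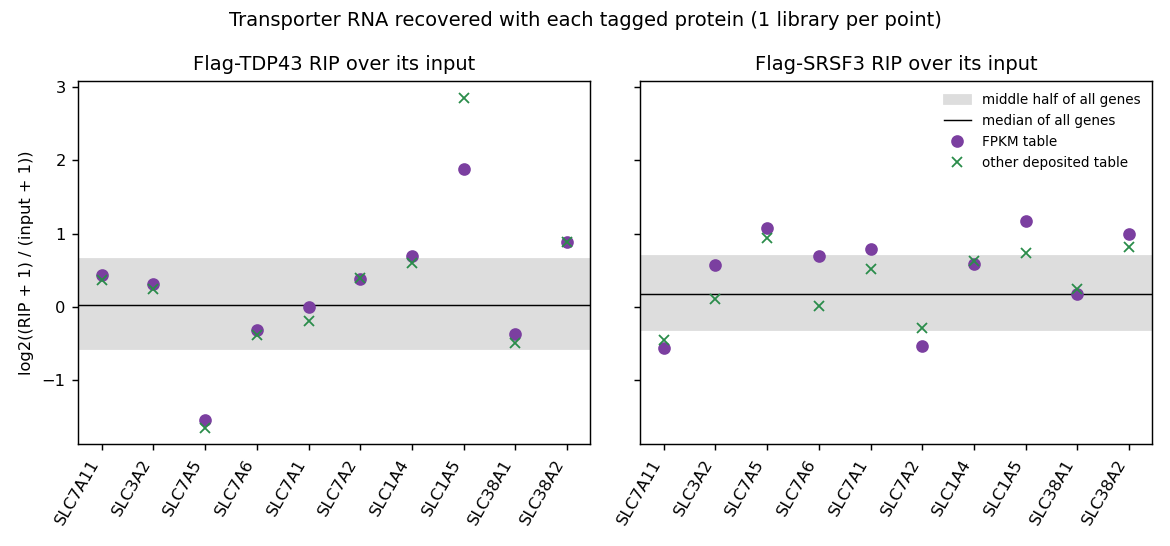
Log2 ratio of RIP over input for each transporter with Flag-TDP43 and Flag-SRSF3, from the FPKM table (circles) and from the other deposited table (crosses), 1 library pair per point. The grey band spans the quartiles of all genes in the FPKM table and the line is their median, so neither is a background for the crosses. In the other deposited table the median over all genes was -0.1 for TDP43 and 0.03 for SRSF3. SLC1A5 lies above the band in both panels, and SLC7A5 lies below it with TDP43 and above it with SRSF3.

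The difference of the log2 ratios, TDP43 minus SRSF3, ranged over the 10 from -2.63 for SLC7A5 to 0.99 for SLC7A11, where the quartiles over 11530 genes were -0.98 and 0.73. It was -1.02 for SLC7A6, 0.92 for SLC7A2, -0.78 for SLC7A1, 0.71 for SLC1A5, -0.55 for SLC38A1, -0.26 for SLC3A2, 0.10 for SLC1A4 and -0.10 for SLC38A2. SLC7A5 was therefore the member with the widest gap between the proteins. The second deposited table of the same libraries, on a normalised scale with no stated unit, gave log2 ratios of -1.65 with TDP43 and 0.94 with SRSF3 for SLC7A5, and 2.86 and 0.73 for SLC1A5. There SLC7A1 was at -0.20 with TDP43 and SLC7A6 at 0.01 with SRSF3.

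SLC38A1 needs care in the RIP data. It was at 1.64 FPKM in the Flag-TDP43 RIP and 2.41 FPKM in its input (-0.37), and at 1.84 FPKM in the Flag-SRSF3 RIP and 1.51 FPKM in its input (0.18). Yet it was among the abundant members in the hairpin libraries, at 33.8 RPKM in sh_control, which is 17.2 times the mean of its inputs, where the other 9 lay between 0.718 and 4.29 times. The second deposited table lists it at 46.7 in the Flag-TDP43 input and 43.2 in the Flag-SRSF3 input. The cause of this gap was not tested.

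Beside the 10, 23 of 43 other plasma membrane and lysosomal amino acid transporters could be tested. In sh_TDP43 against sh_control 8 were higher and 5 lower, where 20.7% of all genes were higher and 24.1% lower. In sh_SRSF3 against sh_control 7 were higher and 11 lower, where 32.5% of all genes were higher and 34.4% lower. For all the lists that follow, these shares of all genes are the background, and a count near them is no result about the list. SLC1A7, a glutamate carrier, was at 10.3 and 8.82 CPM in sh_TDP43 and at 1.16 and 1.1 CPM in sh_control (log2 change 3.08, adjusted p = 5.76e-07). SLC6A9, the glycine carrier GLYT1, was at 3.12 and 2.99 CPM in sh_TDP43, at 0.541 and 0.859 CPM in sh_SRSF3 and at 9.63 and 12.1 CPM in sh_control (log2 changes -1.83, adjusted p = 2.54e-05, and -3.94, adjusted p = 2.58e-08). SLC43A2 (LAT4), a uniporter of large neutral amino acids that needs no heavy chain, was at 31.4 and 34.0 CPM in sh_SRSF3 and at 7.8 and 6.21 CPM in sh_control (log2 change 2.22, adjusted p = 3.13e-08). Its relative SLC43A1 (LAT3) fell by 1.90 (adjusted p = 5.31e-06), and SLC38A4 fell by 2.28 (adjusted p = 4.92e-08). In sh_TDP43 SLC16A10, an aromatic amino acid carrier, rose by 1.16 (adjusted p = 0.00364) and SLC1A1, a glutamate carrier that also takes cysteine, by 1.09 (adjusted p = 0.019). Between the knockdowns 11 were higher and 6 lower in sh_TDP43 against sh_SRSF3. SLC38A10, at 83.4 and 88.3 CPM in sh_TDP43 and 23.2 and 18.2 CPM in sh_SRSF3, had the highest CPM of the 4 with the largest differences (2.05, adjusted p = 5.89e-09). SLC7A7, another light chain of SLC3A2, was at 2.77 and 2.59 CPM in sh_TDP43 and 0.781 and 0.416 CPM in sh_SRSF3 (2.17, adjusted p = 0.000149).

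**Figure D5:**
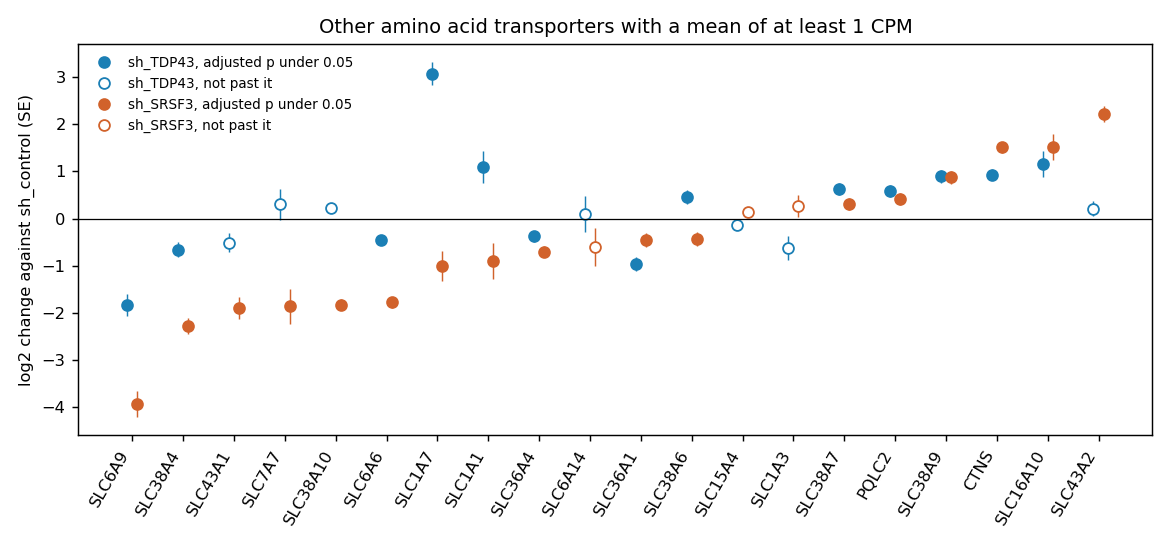
Log2 change against sh_control, with its SE, of the 20 other amino acid transporters with a mean of at least 1 CPM. Filled points passed an adjusted p of 0.05. SLC1A7 is highest in sh_TDP43 at 3.08, SLC43A2 is highest in sh_SRSF3 at 2.22 and SLC6A9 is lowest in both.

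Of 8 tested mitochondrial amino acid carriers, 3 were lower in sh_TDP43 against sh_control and the other 5 did not pass, and 5 were higher and 2 lower in sh_SRSF3. The glutamate carrier SLC25A22 was lower under both hairpins, with log2 changes of -0.81 in sh_TDP43 (adjusted p = 1.58e-05) and -0.45 in sh_SRSF3 (adjusted p = 0.000907). The aspartate-glutamate carrier SLC25A13 was at 35.2 and 35.5 CPM in sh_TDP43, at 67.1 and 73.5 CPM in sh_SRSF3 and at 51.6 and 52.2 CPM in sh_control, with log2 changes of -0.55 (adjusted p = 0.000389) and 0.44 (adjusted p = 0.00103). It thus lay on either side of sh_control, as SLC7A11 and SLC7A1 did. SLC25A44, a carrier of branched-chain amino acids, rose by 1.34 in sh_SRSF3 (adjusted p = 3.54e-08), and SLC25A15 fell by 0.48 in sh_TDP43 (adjusted p = 0.0278).

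Of 25 tested genes of the ATF4 and amino acid response, 6 were higher and 14 lower in sh_TDP43 (median log2 change -0.44; all genes, 20.7% higher and 24.1% lower), and 11 were higher and 5 lower in sh_SRSF3 (median 0.13; all genes, 32.5% higher and 34.4% lower). ATF4 itself was at 187 and 200.3 CPM in sh_TDP43, 475 and 515 CPM in sh_SRSF3 and 262 and 266 CPM in sh_control, with log2 changes of -0.44 (adjusted p = 0.00134) and 0.91 (adjusted p = 8.95e-07). Asparagine synthetase (ASNS), the ATF4 target TRIB3 and the serine hydroxymethyltransferase SHMT2 were likewise lower in sh_TDP43, with log2 changes of -0.67, -0.82 and -0.79, and higher in sh_SRSF3, at 1.23, 0.42 and 0.62 (adjusted p of 0.00664 or less in each). These 4 genes were singled out after their values were seen, and other genes of the list did not share their pattern. SESN2 and CTH were higher under both hairpins, at 0.74 and 0.58 in sh_TDP43 and 1.60 and 1.81 in sh_SRSF3. CHAC1 and EIF2AK4 were lower under both, at -0.77 and -1.05 in sh_TDP43 and -0.72 and -0.55 in sh_SRSF3 (adjusted p of 0.0239 or less in each). DDIT3 (CHOP), the stress response factor, was at 21.3 and 21.5 CPM in sh_TDP43, 99.8 and 111 CPM in sh_SRSF3 and 13.0 and 14.8 CPM in sh_control. It was thus also higher under both, with log2 changes of 0.62 in sh_TDP43 (adjusted p = 0.000466) and 2.92 in sh_SRSF3 (adjusted p = 2.5e-10). ATF5, a related factor, was at 6.4 and 7.06 CPM in sh_TDP43, 2.52 and 2.38 CPM in sh_SRSF3 and 32.4 and 31.6 CPM in sh_control, with log2 changes of -2.25 in sh_TDP43 (adjusted p = 4.93e-08) and -3.70 in sh_SRSF3 (adjusted p = 4.43e-10). PCK2, a mitochondrial gluconeogenic enzyme, fell by 2.34 in sh_SRSF3 (adjusted p = 4.26e-08). In sh_TDP43 the secreted STC2 rose by 2.37 (adjusted p = 1.27e-06) and the mTORC1 inhibitor DDIT4 fell by 1.64 (adjusted p = 7.82e-08).

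Of 19 glutathione and NRF2 genes, 3 were higher and 6 lower in sh_TDP43, and 7 were higher and 5 lower in sh_SRSF3. NQO1, a quinone reductase, was at 49.0 and 32.8 CPM in sh_TDP43 and 167 and 140.1 CPM in sh_control (log2 change -1.91, adjusted p = 8.37e-07). TXNRD1, the thioredoxin reductase, was at 1154 and 1157 CPM in sh_SRSF3 and 453 and 461 CPM in sh_control (log2 change 1.34, adjusted p = 2.29e-08). OSGIN1 rose by 1.11 in sh_SRSF3 (adjusted p = 3.16e-05), and GGT1, which cleaves extracellular glutathione, fell by 1.97 (adjusted p = 1.59e-06).

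Of 25 tested genes of amino acid sensing by mTORC1, 2 were higher and 8 lower in sh_TDP43 (all genes, 20.7% higher and 24.1% lower), and 15 were higher and 4 lower in sh_SRSF3 (median log2 change 0.52; all genes, 32.5% higher and 34.4% lower). RRAGD and RRAGC, partner GTPases that bring mTORC1 to the lysosome, rose in sh_SRSF3 by 2.03 (adjusted p = 2.82e-09) and 1.54 (adjusted p = 2.54e-08). RRAGC was at 111 and 112 CPM in sh_SRSF3 and 34.7 and 42.1 CPM in sh_control. SESN3, which restrains mTORC1, fell by 1.83 in sh_SRSF3 (adjusted p = 9.67e-06). In sh_TDP43 RRAGA fell by 0.88 (adjusted p = 9.08e-06), and WDR59 and MTOR rose by 0.79 (adjusted p = 0.000168) and 0.66 (adjusted p = 5.58e-05).

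Of 17 tested genes of glutamine, arginine and polyamine metabolism, 2 were higher and 6 lower in sh_TDP43, and 5 were higher and 9 lower in sh_SRSF3. AZIN1, the antizyme inhibitor that spares ornithine decarboxylase, was at 119.5 and 108 CPM in sh_TDP43, 629 and 612 CPM in sh_SRSF3 and 268 and 269.5 CPM in sh_control, and ODC1, that enzyme, at 160.3 and 133 CPM in sh_TDP43, 626 and 536 CPM in sh_SRSF3 and 225 and 169 CPM in sh_control. AZIN1 fell by 1.24 in sh_TDP43 (adjusted p = 2.22e-07), and ODC1 rose by 1.56 in sh_SRSF3 (adjusted p = 2.41e-07). ASS1, which joins citrulline and aspartate on the way to arginine, was at 24.0 and 30.3 CPM in sh_TDP43 and 6.86 and 7.85 CPM in sh_control (log2 change 1.89, adjusted p = 8.33e-07). ASL, which releases arginine in the next step, had a log2 change of -0.22 in sh_TDP43 (adjusted p = 0.199). GLUL, glutamine synthetase, fell by 1.77 in sh_SRSF3 (adjusted p = 1.8e-09), and GPT2 changed by -0.89 in sh_TDP43 (adjusted p = 0.000609) and by -1.78 in sh_SRSF3 (adjusted p = 6.28e-07).

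In sh_TDP43 against sh_SRSF3, 1 mitochondrial carrier was higher and 5 were lower. For the ATF4 and amino acid response 4 were higher and 14 lower, for glutathione and NRF2 5 were higher and 10 lower, and for mTORC1 sensing 4 were higher and 15 lower. For glutamine, arginine and polyamine metabolism 7 were higher and 5 lower. The largest differences included DDIT3 (-2.30, adjusted p = 1.34e-09), RRAGD (-2.23, adjusted p = 1.96e-09), AZIN1 (-2.45, adjusted p = 3.14e-10) and ASS1 (2.75, adjusted p = 1.09e-08). ALDH18A1, the first enzyme of proline synthesis, was at 55.4 and 43.9 CPM in sh_TDP43 and 184 and 187 CPM in sh_SRSF3 (-1.90, adjusted p = 8.1e-09).

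Over the 6 hairpin libraries, the genes whose log2 CPM followed SLC7A11 most closely among 9473 with a mean of at least 10 CPM were USP36 (Pearson's r 0.9997), C1orf122 (0.9996) and RIMS2 (0.9995). With 3 groups of 2 libraries such values are common: 178 of 9472 genes reached 0.99 and 1044 reached 0.95. For SLC7A5 they were DIS3L (0.9820), SFPQ (0.9811) and KNSTRN (0.9799), and 0 genes reached 0.99 and 30 reached 0.95. These are descriptions over points that share groups and depth.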

How the data were processed

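RNA-seq of MDA-MB231 cells with 3 hairpin groups of 2 libraries and RIP with matched inputs were used. Groups come from the sample titles. The members and the 6 lists of other genes were chosen with earlier results of these data known. Per-sample columns matching no label numbered 2; they were left out, and the combined knockdown with its interaction is not analysed here. The fits held 6 libraries (3 residual degrees of freedom) against 8 planned. Whether duplicates are separate cultures is not in the labels, and p-values cover only the spread between libraries, which may be technical. That spread exceeded sampling noise (chi-square per gene 9.67 to 18.7).

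Per the file headers, the deposited hairpin values are raw read counts per gene over exons from featureCounts v1.4.6-p5, with no strand option, on GRCh37 protein-coding and lincRNA genes, with exonic length beside them; splice forms are summed. The submitters' processing notes list HISAT2 2.0.5, StringTie 1.3.0, STAR 2.5.2a and Cufflinks, with no role, and GRCh37. Per the file headers, a deposited RIP table holds FPKM and the authors' log2 ratio of RIP over input. A second deposited table holds a normalised signal and log2 ratios for the same libraries. The tools behind both are not given in the sources used here. RIP depth could not be established. A value of about 27.7 to 28.4 M reads (M, 1000000) was inferred from low FPKM values within a preset window. That window bounds the answer in advance, and only 36.7 to 38.7% of low values came out whole within 0.1. The inferred depth is therefore no measurement, and no count test was run on the RIP values.

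Differences in counts were tested in edgeR 4.0.16, R 4.3.3 (TMM, filterByExpr, two-sided quasi-likelihood F-test, Benjamini-Hochberg over 15026 genes, adjusted p under 0.05), all 6 libraries in 1 fit without covariates. The procedure was run on simulated counts in which few genes changed and all genes shared 1 spread. That setting differs from these data, where 44.8 to 66.9% of genes were called, so it says nothing on the scaling. RPKM is TMM-scaled CPM per kilobase of exonic length. RIP ratios are log2((RIP + 1)/(input + 1)) in FPKM, with no test. From each list, in each comparison, the named genes are the called genes of at least 1 CPM with the largest change, up to 4 for other transporters and 3 for other lists. Not every gene that rule names is described. Alternatives were upper-quartile scaling, DESeq2 1.42.0, no filter, a replicate block, leaving out each library, and, for RIP, a pseudocount of 0.1, background filters of 5 FPKM or none, and the other deposited values. Promoter motifs were matched in RefSeq windows of GRCh38.p14 on both strands.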

Additional observations from a re-analysis of the deposited data

How the results depend on the processing

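Of 300 recomputed member changes, 267 kept their direction and their side of the threshold, 22 lost it, 6 gained it and 5 changed sign. The sign changes were all in differences that did not pass: SLC38A2 in sh_TDP43 against sh_control at 0.01 under upper-quartile scaling, SLC7A6 in sh_TDP43 against sh_SRSF3 at 0.19 under the same, and without 1 library SLC7A5 in sh_TDP43 against sh_control (-0.43 to 0.04), SLC38A2 in the same comparison (-0.21 to 0.03) and SLC7A6 in sh_TDP43 against sh_SRSF3 (-0.14 to 0.04). Counts of genes and of transporters called stayed within 1.5 times. Without 1 library, 5 to 7, 7 to 9 and 6 to 9 transporters were called in sh_TDP43 against sh_control, sh_SRSF3 against sh_control and sh_TDP43 against sh_SRSF3. Under upper-quartile scaling the median over all genes moved by -0.15 in sh_SRSF3 against sh_control and by 0.25 in sh_TDP43 against sh_SRSF3. The median ratio of the transporters in the Flag-SRSF3 RIP, 0.64, moved to 0.86 with a pseudocount of 0.1, to 0.38 in the other deposited table and to 0.88 in the authors' deposited log2 ratios; the cause was not tested. Libraries share only a replicate number (correlations of deviations 0.088, 0.12 and 0.075). With it as a replicate block, 7672, 10565 and 10413 genes were called in the 3 comparisons, against 6728, 10045 and 9842 without it, and 7, 10 and 9 transporters, against 6, 9 and 9. Counting error would limit SLC1A4 most in the RIPs, since its FPKM times exonic length was the lowest of the 10 in each library. Its read numbers are not given, because the depth could not be established. The fits planned for the combined knockdown were not run.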
